A study of Mus musculus with 9 samples.

Results

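The transcripts described here are 31 genes known from microglia and other macrophages, followed in dopaminergic neurons of the mouse midbrain and in whole midbrain. The members were chosen by name, and all 31 symbols were found, each in 1 row, among the 24487 rows of the deposited table. The series has 9 libraries, 4 of dopaminergic neurons taken from the midbrain and 5 of whole midbrain, all labelled with the C57BL/6 strain background. No allele, treatment, sex, age or number of animals per library is labelled, and the labels do not say by what means the dopaminergic RNA was obtained. The name of the deposited table contains the word bacTRAP, a method in which tagged ribosomes of a chosen cell type are pulled down with their RNA.

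Microglia are the resident macrophages of the brain. They are kept alive by signals through the receptor CSF1R, survey their surroundings with purinergic and chemokine receptors, and take up debris and complement-tagged material into lysosomes. In the midbrain they are known for being dense around the substantia nigra and for reacting when its dopaminergic neurons degenerate. Dopaminergic neurons are not known to express most of these genes, and several of them signal to microglia through membrane-bound or secreted ligands.

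Values are FPKM, read fragments scaled to transcript length and to the number of mapped fragments, as the authors deposited them. The table holds no counts. Depth was estimated from single-exon genes, whose smallest recurring value times length was taken as 1 read, and came to 47.6 to 63.0 megareads in the dopaminergic libraries and to 16.3 to 33.7 megareads in whole midbrain. At these depths the median member stood at about 38.6 reads per dopaminergic library and 274 reads per whole midbrain library. In at least 1 dopaminergic library 17 of the 31 members had under 20 reads. Reads were taken over the longest annotated transcript of each gene, so they can be overstated where a shorter form is used. Whole midbrain library 2 stood apart from its group, with correlations of log2 values across genes of 0.903 to 0.906 (Pearson's r) with the rest, which correlated at 0.947 to 0.962 among themselves. All 6 marker genes of dopaminergic neurons were higher in the libraries of that label, with Th at 1491 to 1722 FPKM in dopaminergic neurons and 43.7 to 51.5 FPKM in whole midbrain. Whether each library stands for other mice is not labelled. The spread behind every p-value here is therefore that between libraries, and it may be technical.

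Nearly every microglial transcript was far lower in the dopaminergic libraries. Over the 31 members the mean FPKM in dopaminergic neurons, as a percent of the mean in whole midbrain, had a median of 7.20, and it was under 5 percent for 8 members, 5 to 10 percent for 18 and above 10 percent for 5. The lowest was Itgam with 1.03 percent and the highest Lgmn with 51.0 percent. The FPKM of all members summed to 29.0 to 41.9 in dopaminergic libraries and to 276 to 382 in whole midbrain libraries. Lgmn alone made up 43.1 to 55.7 percent of that sum in dopaminergic libraries, against 9.25 to 14.1 percent in whole midbrain.

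The groups were compared with limma on log2(FPKM + 1) for the 13106 genes averaging 1 FPKM or more over the 9 libraries, with p-values adjusted by Benjamini-Hochberg over all of them. Of the 31 members 26 passed this filter, and all 26 fell at an adjusted p under 0.05, where 36.0 percent of all genes tested were lower and 38.3 percent higher. TPM here rescales each library to a common total over rows other than mitochondrial, ribosomal RNA and small RNA genes. As TPM, 58.6 percent of all genes were lower and 15.8 percent higher, and the members' count stayed at 26. Their median log2 fold change was -2.14, beside 0.04 over all genes tested. For 18 of the 26 the dopaminergic mean was under 1 FPKM, so that they passed the filter through whole midbrain, where they are high, and their count is not support by itself. The members left out were Ptprc, Irf8, Spi1, Itgb2 and Csf3r, and when no filter was set the same test called all 5 lower, as it did 34.2 percent of 20084 genes. In 30 of the 31 members every dopaminergic library lay below every whole midbrain library, which held for 31.8 percent of the genes tested, against 32.6 percent in the other direction. Of the 26 tested members 23 had at most 10 percent of the whole midbrain mean, against 5.14 percent of all genes tested. In bulk RNA, fewer microglia in the sample and less RNA per cell cannot be told apart. Nor can they be told from microglial RNA left behind in a pull-down of tagged ribosomes, if that method was used.

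**Figure D1:**
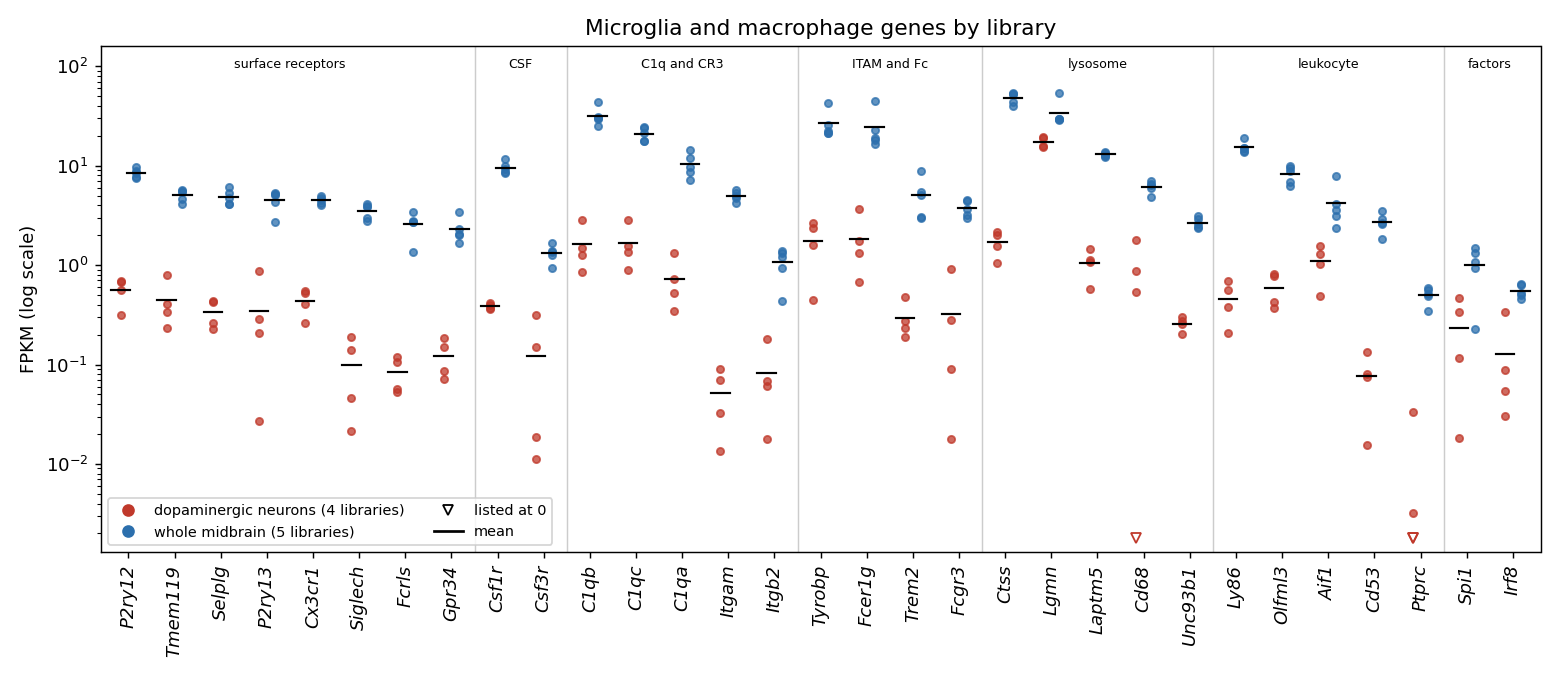
FPKM of the 31 genes in each library on a log axis, grouped by role, with dopaminergic neurons in red left of whole midbrain in blue. Each point is a library, black bars are means (not drawn where a library is listed at 0), and open triangles at the foot of the axis mark values listed at 0. All red points lie below all blue points except for Spi1.

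Several members are neighbours in the genome. C1qb, C1qc and C1qa lie in a row on chromosome 4 within 136880145 to 136898844 (mm10, gene spans as the table gives them, counted from 1), with gaps of 3624 and 3001 bases. P2ry13 and P2ry12 lie 5388 bases apart on chromosome 3 (59207894 to 59262831), and Tmem119 and Selplg 17445 bases apart on chromosome 5 (113793729 to 113830501).

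PU.1, the product of Spi1, is the master transcription factor of macrophages and binds DNA around the letters GAGGAA, so the promoters of the members were read for this hexamer. Promoter sequences from RefSeq (GRCm38.p6, the assembly of mm10) were held for 22 of the 31 members, and Tmem119, Csf1r, C1qa, Tyrobp, Selplg, Gpr34, Spi1, Itgb2 and Unc93b1 were not among them. GAGGAA was present on either strand in the 250 bases before the start of 14 of the 22 members (63.6 percent), against 25.9 percent of all 27025 genes in the promoter table. The stretches printed here are the 100 bases before the start of each member that holds the hexamer there and has no annotated exon in that stretch, 5′ to 3′ on the gene's strand, with the hexamer or its reverse complement TTCCTC in capitals.
P2ry13 (chr3:59210883-59210982, minus strand): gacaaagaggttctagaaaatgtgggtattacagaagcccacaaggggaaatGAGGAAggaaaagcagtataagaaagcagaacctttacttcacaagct
C1qb (chr4:136886201-136886300, minus strand): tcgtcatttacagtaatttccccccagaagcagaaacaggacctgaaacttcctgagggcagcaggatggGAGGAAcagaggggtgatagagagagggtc
Itgam (chr7:128062540-128062639, plus strand): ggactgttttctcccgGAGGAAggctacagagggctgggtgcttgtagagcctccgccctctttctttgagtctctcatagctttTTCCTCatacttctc
Trem2 (chr17:48346301-48346400, plus strand): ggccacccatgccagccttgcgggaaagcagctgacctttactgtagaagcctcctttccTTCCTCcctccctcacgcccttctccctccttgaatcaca
Cd53 (chr3:106790150-106790249, minus strand): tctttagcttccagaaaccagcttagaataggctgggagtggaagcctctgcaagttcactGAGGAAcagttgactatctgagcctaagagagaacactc
Fcgr3 (chr1:171059404-171059503, minus strand): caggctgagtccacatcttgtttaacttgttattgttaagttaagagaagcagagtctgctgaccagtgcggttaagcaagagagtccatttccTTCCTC

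The capitals began 48 bases before the start in P2ry13, 30 in C1qb, 84 and 15 in Itgam, 40 in Trem2, 39 in Cd53 and 6 in Fcgr3. Words that overlap the hexamer were AGGAAGT and GAGGAAGT, present in 5 and 1 of the 22 members against 8.80 and 2.79 percent of all genes, and GGAAGT, present in 7 members against 22.2 percent. A composite word of PU.1 with an interferon regulatory factor was searched in a loose and a strict spelling, found in none of the 22 members and in 2.68 and 0.204 percent of all genes. A paired interferon regulatory factor word was found in 2 members, TATAAA in 6, TGANTCA in 2, CCAAT in 9 and CCGCCC in 7, against 3.46, 14.3, 7.82, 37.5 and 35.4 percent of all genes. All 11 motifs were searched on both strands, the hexamer was picked for printing after these shares were seen, and a match describes letters and not a bound site.

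The surface receptors of resting microglia all fell, to between 2.84 and 9.71 percent of whole midbrain. P2ry12, a receptor for ADP that guides microglial processes (chromosome 3, 59216271 to 59262831), was at 0.314, 0.566, 0.672 and 0.691 FPKM in dopaminergic libraries 1 to 4 and at 8.76, 9.62, 7.73, 8.49 and 7.51 in whole midbrain libraries 1 to 5. All 4 dopaminergic libraries lay far below the lowest whole midbrain library, and the log2 fold change was -2.60 ± 0.11 (SE, limma adjusted p = 1.7e-08). Cx3cr1, the receptor for the neuronal chemokine fractalkine (chromosome 9, 120048683 to 120068296), was at 0.262, 0.545, 0.408 and 0.528 FPKM in dopaminergic neurons against 4.68, 5.01, 4.06, 4.47 and 4.22 in whole midbrain, a log2 fold change of -1.94 ± 0.10 (SE, limma adjusted p = 6.2e-08). Tmem119, a membrane protein used to tell microglia from other macrophages, had its highest dopaminergic value in library 1. Its FPKM was 0.790, 0.234, 0.404 and 0.337 in dopaminergic neurons and 4.08 to 5.70 in whole midbrain. P2ry13, a further ADP receptor, ran over a wide range in dopaminergic neurons, from 0.0271 FPKM in library 3, about 4.0 reads, to 0.865 in library 4, about 122.6 reads, and stood at 2.74 to 5.29 in whole midbrain. Siglech, a lectin that binds sialic acid, and Fcrls, an Fc receptor-like protein, were the lowest of the group at 0.0216 to 0.190 and 0.0530 to 0.118 FPKM, against 2.76 to 4.10 and 1.36 to 3.38 in whole midbrain. Selplg, the ligand of P-selectin, and Gpr34, a receptor for lysophosphatidylserine, had 6.91 and 5.39 percent left.

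Csf1r, the receptor tyrosine kinase that microglia need to survive, fell to 0.419, 0.368, 0.394 and 0.361 FPKM in dopaminergic libraries 1 to 4, against 9.83, 11.6, 8.496, 9.17 and 8.73 in whole midbrain (log2 fold change -2.92 ± 0.10, SE, limma adjusted p = 4.9e-09). Its percent left was nearly the same in each dopaminergic library, 4.38, 3.85, 4.12 and 3.77, with a coefficient of variation of 6.84 percent between libraries where the median member had 53.3 percent. The exons of Csf1r share 873 bases with Hmgxb3 on the opposite strand, and the handling of strand is not given in the sources used here, so reads of these genes cannot be told apart there. Csf3r, the granulocyte growth factor receptor, was low throughout, at 0.311, 0.0111, 0.0186 and 0.148 FPKM in dopaminergic neurons and 0.934 to 1.68 in whole midbrain, and was under the filter. With no filter its log2 fold change was -1.05 (limma adjusted p = 3.0e-05), on about 49.9, 1.7, 3.8 and 29.6 reads in the dopaminergic libraries.

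The 3 chains of C1q, the protein that starts the classical complement cascade, fell to similar shares of whole midbrain. C1qb was at 0.857, 1.49, 1.28 and 2.85 FPKM in dopaminergic libraries and 30.5, 43.5, 25.1, 31.2 and 29.6 in whole midbrain, with 5.07 percent left (log2 fold change -3.68 ± 0.21, SE, limma adjusted p = 1.4e-07). C1qc was at 0.897 to 2.87 FPKM against 17.6 to 24.4, with 7.91 percent left, and C1qa at 0.349 to 1.31 against 7.25 to 14.4, with 7.03 percent left. The chain with the highest dopaminergic value differed by library, and the groups did not overlap for any of them. Itgam and Itgb2 encode the subunits of complement receptor 3, which binds complement fragments on tagged material. Itgam (chromosome 7, 128062640 to 128118491) was at 0.0136, 0.0325, 0.0702 and 0.0902 FPKM in dopaminergic libraries 1 to 4, about 3.0, 6.9, 19.8 and 24.6 reads. In whole midbrain it was at 5.75, 4.24, 4.77, 5.32 and 4.90 FPKM, so that the means differed 96.8-fold, the largest ratio among members with no value listed at 0 (log2 fold change -2.51 ± 0.10, SE, limma adjusted p = 1.2e-08). The annotated exons of Itgam share 3450 bases with Gm49368 on the same strand, so the split of reads between these genes is uncertain. Itgb2, which was under the filter, was at 0.0178 to 0.1801 FPKM against 0.433 to 1.39 (without filter, limma adjusted p = 0.00047).

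Receptors that signal through the ITAM motif, a paired tyrosine signal in the cytoplasm, fell with their adaptors. Tyrobp, also called DAP12, the adaptor that TREM2 needs, was at 2.35, 2.65, 0.446 and 1.61 FPKM in dopaminergic libraries 1 to 4 and 21.5, 42.3, 22.2, 25.5 and 21.5 in whole midbrain (log2 fold change -3.35 ± 0.29, SE, limma adjusted p = 2.3e-06). Fcer1g, the common gamma chain of Fc receptors, was at 0.682, 1.31, 1.73 and 3.63 FPKM against 23.0, 44.9, 16.3, 19.0 and 18.2 (log2 fold change -3.16 ± 0.33, SE, limma adjusted p = 1.1e-05). Both adaptors were highest in whole midbrain library 2, and without it 7.79 and 9.62 percent of their whole midbrain means were left. Trem2, a lipid-sensing receptor of microglia, was at 0.189 to 0.478 FPKM in dopaminergic neurons and 2.97 to 8.89 in whole midbrain, with 5.81 percent left. Fcgr3, a low-affinity receptor for IgG, varied most of the members tested in dopaminergic neurons, at 0.0177, 0.0911, 0.909 and 0.283 FPKM, about 1.0, 5.0, 65.7 and 19.8 reads, against 2.97 to 4.52 FPKM in whole midbrain.

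Among lysosomal and endosomal proteins Ctss and Lgmn, proteases that were the most abundant members in whole midbrain, stood far apart. Ctss, the cysteine protease cathepsin S (chromosome 3, 95526786 to 95556405), was at 1.04, 2.16, 2.02 and 1.55 FPKM in dopaminergic libraries 1 to 4 against 52.1, 40.3, 52.3, 53.9 and 43.3 in whole midbrain, with 3.50 percent left (log2 fold change -4.21 ± 0.14, SE, limma adjusted p = 5.4e-09). Lgmn, the asparaginyl endopeptidase legumain (chromosome 12, 102394098 to 102439697), was at 15.9, 15.4, 18.8 and 19.4 FPKM in dopaminergic libraries against 29.2, 53.7, 29.1, 29.3 and 29.3 in whole midbrain. The groups did not overlap, and Lgmn fell by 0.89 ± 0.18 on the log2 scale (SE, limma adjusted p = 0.00118). Its mean was 51.0 percent of whole midbrain, or 59.5 percent without whole midbrain library 2, whose value of 53.7 stood above the 29.1 to 29.3 of the rest. It was by far the best covered member in dopaminergic neurons, with about 1311 to 2124 reads per library. Laptm5, a lysosomal membrane protein of leukocytes, had 8.13 percent left and Unc93b1, which carries Toll-like receptors to endosomes, 9.66 percent, and Unc93b1 was among the more even members at 0.204 to 0.299 FPKM against 2.34 to 3.14. Cd68, a lysosomal glycoprotein of macrophages, was listed at 0 in dopaminergic library 3, at 0.537, 0.862 and 1.80 FPKM in libraries 1, 2 and 4, and at 4.85 to 7.06 in whole midbrain (log2 fold change -2.08 ± 0.25, SE, limma adjusted p = 2.8e-05).

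Of the remaining immune proteins, Ly86, the partner of a Toll-like receptor homologue, was at 0.567, 0.689, 0.381 and 0.206 FPKM in dopaminergic neurons against 14.9, 19.1, 14.9, 13.6 and 13.9 in whole midbrain, with 3.02 percent left (log2 fold change -3.48 ± 0.13, SE, limma adjusted p = 8.4e-09). Cd53, a tetraspanin of leukocytes, was at 0.0156 to 0.133 FPKM against 1.82 to 3.51, and Olfml3, a secreted protein known from microglia, at 0.371 to 0.816 against 6.28 to 9.92. Ptprc, the leukocyte phosphatase CD45, was listed at 0 in dopaminergic libraries 1 and 3 and at 0.0329 and 0.00325 FPKM in libraries 2 and 4, against 0.513, 0.486, 0.557, 0.591 and 0.342 in whole midbrain. Aif1, which encodes the microglial stain marker IBA1 (chromosome 17, 35170992 to 35176001), kept a higher share than most members. It was at 0.489, 1.54, 1.31 and 1.03 FPKM in dopaminergic libraries against 3.14, 7.78, 2.38, 4.13 and 3.62 in whole midbrain. The groups did not overlap, and 25.9 percent of the mean was left, or 32.8 percent without whole midbrain library 2 (log2 fold change -1.27 ± 0.26, SE, limma adjusted p = 0.00131).

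The transcription factors were low in both groups and had no test at the filter used. Spi1 was at 0.0180, 0.334, 0.463 and 0.115 FPKM in dopaminergic libraries 1 to 4 and at 1.33, 0.228, 1.08, 1.47 and 0.924 in whole midbrain libraries 1 to 5. It was the member whose groups overlapped, because whole midbrain library 2 lay below dopaminergic libraries 2 and 3, and that value rests on about 9.7 reads. Irf8, an interferon regulatory factor needed by microglia, was at 0.0541, 0.0873, 0.0300 and 0.339 FPKM in dopaminergic libraries, with library 4 apart from the others, and at 0.460 to 0.644 in whole midbrain. Without the filter the log2 fold changes of Spi1 and Irf8 were -0.68 and -0.47 (limma adjusted p = 0.0171 and 0.00073).

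The share left was not the same in the 4 dopaminergic libraries. The median over the members was 4.41, 5.41, 4.595 and 8.20 percent in libraries 1 to 4, and 14 members were highest in library 4, 11 in library 2 and 3 each in libraries 1 and 3. Library 1 held the lowest value of 15 members. The dopaminergic libraries spread more than the whole midbrain libraries for 27 of the 31 members, with a median coefficient of variation of 53.3 percent against 19.3 percent. The median member had about 38.6 reads per dopaminergic library against 274 in whole midbrain, and 17 members had under 20 in a dopaminergic library. The part of counting error in this spread was not tested, and the spread was not compared over all genes. Other RNA moved with the order of the members' medians. Malat1, a nuclear noncoding RNA, was at 22.5, 60.3, 24.5 and 78.7 FPKM in dopaminergic libraries 1 to 4, and the myelin gene Mbp at 47.2, 76.8, 60.3 and 92.3 FPKM. Their part in the microglial values was not tested.

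**Figure D2:**
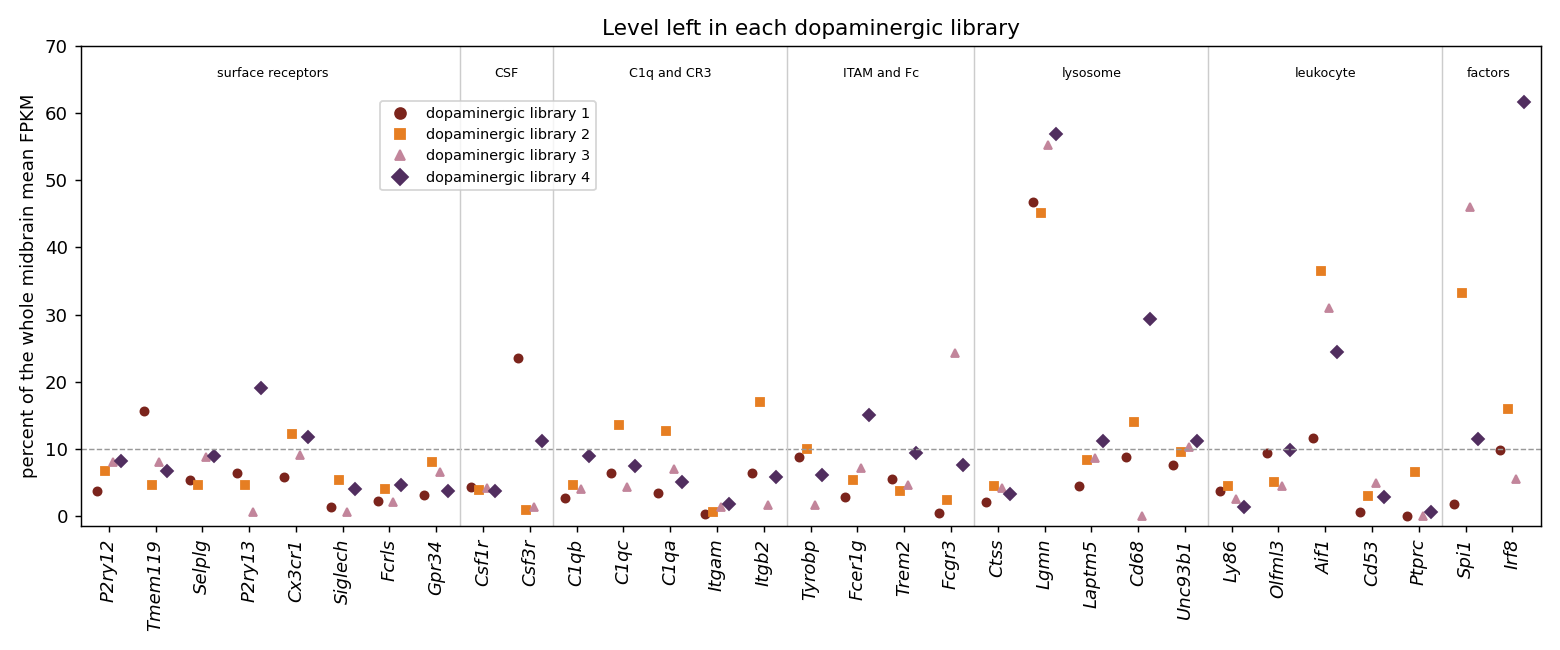
FPKM in each dopaminergic library as a percent of the whole midbrain mean, for the 31 genes grouped by role, with a marker shape for each library and a dashed line at 10 percent. Most points lie under the line, Lgmn lies at 45.0 to 56.9 percent, and single libraries of Fcgr3, Csf3r and Irf8 lie well above the others.

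Set beside lists of other cell types of 10 genes each, the median percent left for the microglial genes was near that of astrocyte genes, under that of oligodendrocyte genes and over that of endothelial genes. By summed FPKM the order was another, with 11.2 percent left for the microglial genes, 13.5 for astrocyte, 7.36 for oligodendrocyte and 2.06 for endothelial genes. The microglial and astrocyte sums in dopaminergic neurons leaned on 1 gene each. There the microglial genes summed to a mean of 35.1 FPKM, of which Lgmn was 17.4. Astrocyte genes summed to 196 FPKM, of which Aldoc was 151. Medians over dopaminergic libraries 1 to 4 were 3.84, 6.03, 4.54 and 6.37 percent for astrocyte genes. For oligodendrocyte genes they were 10.1, 13.9, 9.73 and 19.9 percent. Endothelial genes were lowest, with medians of 1.17, 1.69, 0.861 and 2.59 percent. In all 4 libraries the microglial median lay between those of endothelial and oligodendrocyte genes. These lists were chosen with earlier results known, and the differences between them were not tested. All 10 members of each list fell in dopaminergic neurons, where 36.0 percent of all genes tested were lower. The dopaminergic mean was under 1 FPKM for 2 astrocyte genes and all 10 endothelial genes. Those genes passed the filter through whole midbrain, so their counts are not support by themselves. Summed levels were 176 to 209 FPKM against 1250 to 1515 for astrocytes. They were 182 to 308 against 2952 to 3417 for oligodendrocytes and 1.51 to 3.49 against 94.0 to 159 for endothelium. No marker in these 3 lists was listed at 0 in a dopaminergic library.

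**Figure D3:**
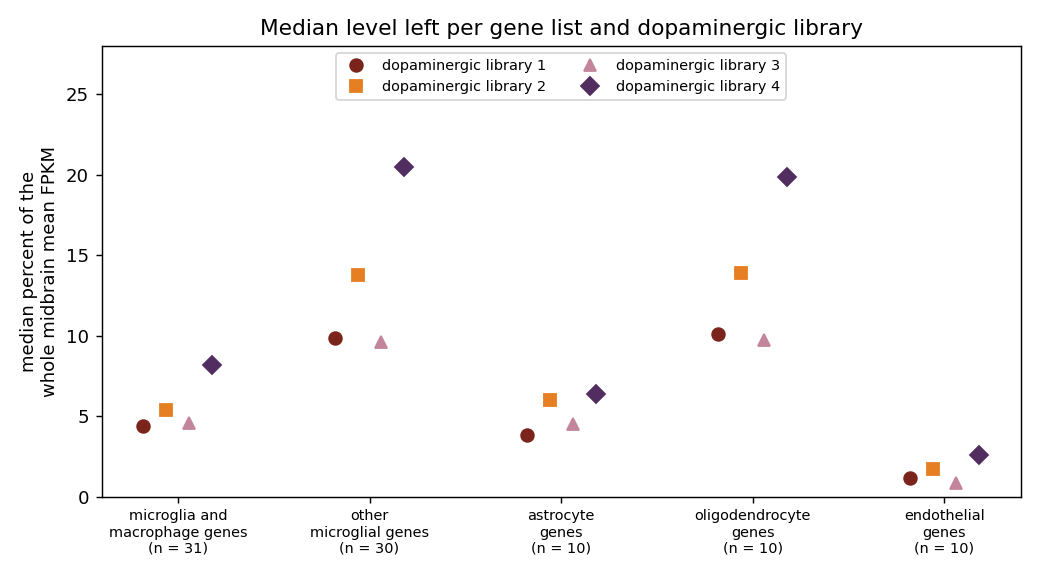
Median over each list of the FPKM in a dopaminergic library as a percent of the whole midbrain mean, with a point for each of the 4 dopaminergic libraries and n the number of genes in the list. Library 4 is highest in all 5 lists, and the microglia and macrophage genes lie between 4.41 and 8.20 percent.

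A further 30 microglial genes were mostly under the filter. Of the 10 that passed the filter 9 fell and 1 rose, beside 36.0 percent lower and 38.3 percent higher over all genes tested. For 7 of the 10 the dopaminergic mean was under 1 FPKM, so that they passed the filter through whole midbrain. Mertk, a receptor that engulfs dying cells, was at 0.183 to 0.341 FPKM in dopaminergic neurons and 2.53 to 5.77 in whole midbrain, and Slco2b1, an organic anion transporter, at 0.0776 to 0.139 against 1.81 to 4.56. The gene that rose was Sall1, a transcription factor of microglial identity that is also known from other tissues, at 6.44, 8.13, 9.26 and 7.56 FPKM in dopaminergic neurons against 4.84, 2.95, 4.17, 4.86 and 4.76 in whole midbrain. Its log2 fold change was 0.74 ± 0.14 (SE, limma adjusted p = 0.00070), and it did not pass when FPKM was rescaled to TPM (log2 fold change 0.16, adjusted p = 0.520). The median gene of the list stood at 9.86, 13.8, 9.59 and 20.5 percent of whole midbrain in dopaminergic libraries 1 to 4.

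The ligands that act on the microglial receptors gave calls that depended on the scaling. Of 8 such genes 6 were tested, of which 3 fell and 1 rose, beside 36.0 percent lower and 38.3 percent higher over all genes tested. As TPM all 6 were lower, where 58.6 percent of all genes tested were lower and 15.8 percent higher. Cx3cl1, the ligand of CX3CR1, was at 26.9, 24.0, 28.2 and 29.1 FPKM in dopaminergic neurons and 32.3, 31.01, 32.7, 30.4 and 29.5 in whole midbrain. Its log2 fold change was -0.20 ± 0.07 (SE, limma adjusted p = 0.0303), a call that ended under median centring (adjusted p = 0.15) and without dopaminergic library 1 or 2 or whole midbrain library 1 or 3 (adjusted p = 0.0609, 0.101, 0.062 and 0.0664), and as TPM it was larger (-0.90, adjusted p = 2.8e-05). The log2 fold change of its receptor was -1.94. Il34 and Csf1 both bind CSF1R. Il34 was at 4.83 to 6.41 FPKM in dopaminergic neurons against 5.55 to 8.15 and did not pass (log2 fold change -0.19 ± 0.12, SE, limma adjusted p = 0.173), but it was called lower under upper-quartile scaling (-0.39, adjusted p = 0.00591) and as TPM (-0.86, adjusted p = 2.9e-05). Csf1 fell to 1.97, 2.14, 3.36 and 2.16 FPKM against 7.84, 10.2, 6.09, 6.73 and 7.97 (log2 fold change -1.36, adjusted p = 1.8e-05). Cd200, whose receptor restrains microglia, was at 95.5, 103, 102 and 106 FPKM in dopaminergic neurons and 68.6, 115, 73.3, 67.0 and 67.7 in whole midbrain. The call that it was higher, at a log2 fold change of 0.41 (limma adjusted p = 0.0330), strengthened without whole midbrain library 2 (0.55, adjusted p = 1.5e-06) and turned to lower under quantile normalization (-0.23, adjusted p = 0.0487) and as TPM (-0.29, adjusted p = 0.0153). The Cd200 call also ended under upper-quartile scaling (0.17, adjusted p = 0.251), in the replicate block (adjusted p = 0.0784) and without any single library other than dopaminergic library 1 and whole midbrain library 2 (adjusted p = 0.0637 to 0.0764). Cd47, a signal against engulfment, was at 46.3 to 50.6 FPKM against 37.8 to 47.1 and did not pass (log2 fold change 0.12, limma adjusted p = 0.213), and it was called lower under quantile normalization and as TPM (-0.37 and -0.58). Tgfb2 fell to 0.474 to 0.690 FPKM against 2.74 to 3.33. Tgfb1, the form that keeps microglia in their resting state, was at 0.0331 to 0.0859 FPKM against 0.339 to 1.09 and was under the filter, and Csf3 was listed at 0 in all dopaminergic libraries and in 3 of the 5 of whole midbrain.

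**Figure D4:**
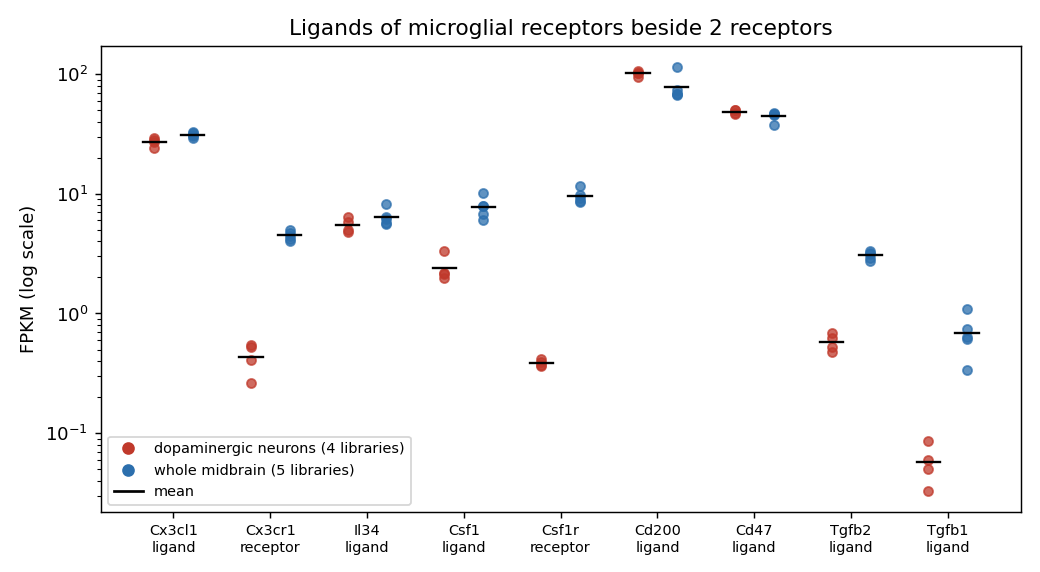
FPKM on a log axis of 7 ligands and of the receptors Cx3cr1 and Csf1r, with dopaminergic neurons in red left of whole midbrain in blue, a point for each library and black bars for means. In FPKM, Cx3cl1, Il34, Cd200 and Cd47 have means within 1.5 times of each other in both groups. All 4 are called lower as TPM, as are 58.6 percent of all genes tested. In FPKM, both receptors lie at least 10 times lower in dopaminergic neurons by their means.

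Of 10 complement genes other than C1q 4 were tested, of which 2 fell and 1 rose, near the 36.0 percent lower and 38.3 percent higher over all genes tested. C4b, a cascade component, fell to 0.0896 to 0.152 FPKM in dopaminergic neurons against 2.83 to 3.95 in whole midbrain. Cd55, a membrane protein that protects cells by dismantling complement convertases, rose to 6.41, 7.38, 7.51 and 7.503 FPKM in dopaminergic neurons against 3.36, 3.33, 1.96, 2.51 and 2.53 in whole midbrain (log2 fold change 1.15 ± 0.12, SE, limma adjusted p = 1.3e-05). Of 8 genes of activated microglia 4 were tested and 3 fell. The one not called was Lpl, a lipoprotein lipase named after its values were seen, at 1.92 to 3.43 FPKM in dopaminergic neurons against 1.84 to 7.499 in whole midbrain (log2 fold change -0.12, limma adjusted p = 0.713). Spp1, the secreted protein osteopontin, was at 2.36 to 5.03 FPKM in dopaminergic neurons against 22.4 to 86.3, and Axl, a receptor for dying cells, at 0.191 to 0.444 against 7.497 to 11.6.

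Genes of other macrophages and of blood leukocytes were mostly under the filter. Of 8 genes of border macrophages, which line vessels and meninges, 2 passed the filter, and 1 of them was called. Pf4 fell to 0.216 to 1.42 FPKM in dopaminergic neurons against 0.808 to 5.12 in whole midbrain, with overlapping groups (log2 fold change -1.14, limma adjusted p = 0.00821, and 0.143 under quantile normalization). Mrc1, named after its values were seen, was at 0.374 to 1.13 FPKM against 0.686 to 2.11. Its groups overlapped, and it was not called (log2 fold change -0.29, limma adjusted p = 0.187). All 4 genes of MHC class II, which present antigen, fell, but 2 of them did under quantile normalization, and the groups overlapped for H2-Aa and H2-Eb1. Cd74 was at 0.02001, 0.103, 0.513 and 1.72 FPKM in dopaminergic libraries 1 to 4 against 8.02, 26.3, 2.88, 9.998 and 8.87, and H2-Aa at 0.213 to 1.70 against 1.27 to 13.1, and in both library 4 was the highest of its group. None of 8 cytokine and chemokine genes reached the filter. Of 12 genes of other blood leukocytes 3 were tested and all fell, and each of the 12 was listed at 0 in at least 1 dopaminergic library. Over all genes tested 36.0 percent were lower. Every tested gene of the border macrophage, MHC class II and leukocyte lists had a dopaminergic mean under 1 FPKM. They passed the filter through whole midbrain, so these counts are not support by themselves. The 12 leukocyte genes summed to 0.138 to 0.639 FPKM in dopaminergic neurons and 6.38 to 12.1 in whole midbrain. The microglial members summed to 29.0 to 41.9 and 276 to 382.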

How the data were processed

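RNA from 4 libraries of midbrain dopaminergic neurons and 5 of whole midbrain was amplified to cDNA and sequenced as single reads, per the labels' protocols. FPKM values were deposited by the authors, and TopHat2 2.0.8, Cufflinks 2.1.1 and the build mm10 are named in the submitters' processing notes. For strand handling and annotation, the sources used here give nothing. Whole midbrain values carry up to 10 significant digits and dopaminergic values up to 6, and what was done differently to them is not stated.

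Groups followed the sample titles. Genes averaging at least 1 FPKM were compared as log2(FPKM + 1) with limma 3.58.1 in R 4.3.3, with a mean-variance trend and Benjamini-Hochberg adjustment over all genes tested, at a threshold of 0.05. Fold changes are on this scale, which understates changes of low genes. The fit was tested on simulated data. Approximate reads assume a mean fragment of 200 bases and a tolerance of 2 percent, with at least 5 genes agreeing. They also assume the longest annotated transcript of each gene, so counting error is known only roughly. For Olfml3 that transcript has 5465 bases, longer than the gene's span in the deposited values (chromosome 3, 103735394 to 103738001). Summaries used Python 3.11.15, pandas 2.3.3 and NumPy 2.4.6, and figures matplotlib 3.10.9. Other pseudocounts, filters, scalings, weights, a replicate block and leaving out each library were tried.

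The members, the 13 other lists and the motifs were chosen with earlier results of these data known. All 31 members are named, with, from each other list, the 2 called genes of largest change, up to 2 called against the list's direction, and every ligand. Some genes that this rule picks are not reported here.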

Additional observations from a re-analysis of the deposited data

Results flagged for a closer look

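Single libraries stood far from the rest of their group in 9 of 77 groups of values tested over 39 genes, by the gap to the nearest library relative to the range. Chance flags about 1 in 20 such groups. Of the 9, 6 were in whole midbrain library 2. There Tyrobp was at 42.3 FPKM against 21.5 to 25.5 in the other libraries, Fcer1g at 44.9 against 16.3 to 23.0, Lgmn at 53.7 against 29.1 to 29.3 and Ly86 at 19.1 against 13.6 to 14.9. In the same library Cd200 was at 115 FPKM against 67.0 to 73.3, and Cd47 was the lowest at 37.8 against 45.4 to 47.1. Among dopaminergic libraries, Csf1 was at 3.36 FPKM in library 3 against 1.97 to 2.16, and Ptprc at 0.0329 in library 2 against 0 to 0.00325. Csf3 was at 0.280 FPKM in whole midbrain library 1 against 0 to 0.0257. In whole midbrain library 2 the red blood cell genes summed to 854 FPKM against 143 to 264 in the other whole midbrain libraries, the endothelial genes to 159 against 94.0 to 111, and the MHC class II genes to 49.2 against 5.68 to 21.1. Their part in these values was not tested.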

How the results depend on the processing

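All 504 recomputed calls of the 26 tested members kept their direction and passed the threshold, and 26 members were lower without any single library. Of 550 calls of 28 other named genes, 526 were kept, 17 lost the threshold, 2 gained it and 5 reversed. The reversals were Cd200 (-0.23 under quantile normalization, -0.29 as TPM) and Cd47 (-0.37 under quantile normalization, -0.12 under upper-quartile scaling, -0.58 as TPM). The median of all genes moved from 0.04 to -0.60 as TPM and -0.16 under upper-quartile scaling. As TPM, 7686 genes were lower and 2067 higher, and 2493 were lower at a minimum of 5 FPKM.

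At that minimum fewer genes are tested, 8669 in all, of which 2493 were lower. Lower among them were 10 members, 1 other microglial gene, 1 complement gene (0 higher) and 0 border macrophage genes. So were 1 MHC class II gene, 0 leukocyte genes and 5 endothelial genes. With no filter more are tested, and 34.2 percent of 20084 genes were lower. Of the lists, 25 of 30 other microglial, 8 of 10 complement and 7 of 8 border macrophage genes were lower. So were 5 of 8 activated, 1 of 8 cytokine and 6 of 12 leukocyte genes. Quantile normalization gave 5 ligands lower and 0 higher, 0 border macrophage and 2 MHC class II genes lower. TPM, where 58.6 percent of all genes tested were lower, gave 6 ligands lower and 0 higher. It also gave 2 border macrophage genes lower and 0 other microglial genes higher. Upper-quartile scaling and the replicate block gave 0 ligands higher, and median centring and library weights 2 complement genes higher. Without single libraries, ligands higher ranged from 0 to 1 and complement genes higher from 1 to 2. Over all rows FPKM summed to 506466 to 521822 per dopaminergic library and to 309275 to 409130 per whole midbrain library. The causes of the changes by scaling were not tested.

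The members' median log2 fold change was -3.69 with a pseudocount of 0.1, -0.92 with 5, -3.12 at a minimum of 5 FPKM, -1.65 under quantile normalization and -3.35 as TPM, and the median percent left as TPM was 3.50 in dopaminergic library 2 and 4.97 in library 4. Cx3cl1 lost its call in the replicate block (adjusted p = 0.0814, limma). Same-numbered libraries did not deviate together (correlations -0.04, -0.05, 0.01 and 0.02). These values give no sign of pairing but cannot exclude it, because technical differences between libraries could hide it. The replicate block kept 26 members lower. Members with under 20 reads in a dopaminergic library (17 of 31) are the least precise.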

Other observations

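The balance of the C1q chains differed more among dopaminergic libraries than among whole midbrain libraries. Of the summed FPKM of the 3 chains, C1qc took 52.7, 50.5, 30.96 and 31.6 percent in dopaminergic libraries 1 to 4, against 31.7 to 35.0 percent in whole midbrain. C1qb took 33.6, 26.3, 44.1 and 57.9 percent in dopaminergic libraries and 44.2 to 57.9 percent in whole midbrain. C1qa took 10.6 to 25.0 percent against 9.65 to 20.8 percent. The dopaminergic values rest on about 14.3 to 154 reads per chain and library, and this difference was not tested.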
